A study of Mus musculus with 1646 samples.

Results

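The 9 Hedgehog pathway genes *Hhip*, *Ptch1*, *Smo*, *Gas1*, *Boc*, *Cdon*, *Gli1*, *Gli2* and *Gli3* were followed through 8 clusters of mesenchymal cells of the mouse colon. They were taken by symbol, and all 9 were found among the 46517 genes of the table of read counts. On GRCm38, *Hhip* lies at chr8:79965851-80058006, *Ptch1* at chr13:63508328-63573598, *Gas1* at chr13:60174405-60177365 and *Gli1* at chr10:127329882-127341974, all on the minus strand. The cells were single cells sorted into 384-well plates and sequenced with SmartSeq2, a full-length method without molecular identifiers. The table held 1646 cells from 4 reporter lines and 9 plates. In Acta2GFP (34.4% of the cells), Cspg4dsRED (5.53%), PdgfraGFP (13.8%) and PdgfrbGFP (46.2%) mice a fluorescent protein follows the promoter or locus of the named gene, so that each line offers its own selection of mesenchymal cells to the sorter. All mice were males aged 10 to 20 weeks on a C57Bl6/J background, combinations of strains were in use, and cells carrying the endothelial surface protein CD31 were sorted out. Elastase was added to the dissociation mix for cells isolated by the Acta2GFP reporter and not for the other lines. The labels name no mouse, so a reporter line stood for a sample, and p-values measure the spread between lines, which can be technical.

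The 8 clusters were those the submitters gave each cell. Following their annotation, cluster 7 held fibroblasts of the crypt base (13.5% of the cells), cluster 5 those from base to middle (25.8%), cluster 1 those of the middle (29.3%), cluster 6 those from middle to apex (45 cells, 2.73%) and cluster 2 the sub-epithelial apex fibroblasts (7.96%). Cluster 4 held pericytes (8.63%), cluster 3 vascular smooth muscle cells (SMC; 8.57%) and cluster 8 interstitial SMC (56 cells, 3.40%). The clusters had been drawn from these same counts, so the tests between them describe the clusters and are not independent of how they were drawn. Markers followed the names in most clusters. *Cd34*, which marks fibroblasts of the deeper mucosa, lay between 533 and 1544 counts per 500000 in clusters 7, 5 and 1 and between 4.1 and 79.7 in all others, and the apex marker *Il1rl1* was at 115.9 to 391.1 in cluster 2 and at most 3.6 elsewhere. The other 2 apex markers were less particular, since *Tnc* was 528.7 to 552.3 in cluster 1 and 353.4 to 489.4 in cluster 6 against 1851 to 2092 in cluster 2, and *Bmp7*, at 204.6 to 613.9 in cluster 2, was at 259.2 and 441.2 in cluster 6. Cluster 6 stood apart from the other fibroblasts by 5 contractile SMC markers, whose summed level was 591 to 1779 against 56.3 to 329.4 in the remaining fibroblast clusters. Of the 4 endothelial markers, *Cdh5* and *Kdr* were at most 3.9 and *Pecam1* at most 13.2 in every cluster and line, while *Tek* reached 87.6 to 213.7 in clusters 7 and 5. Cluster 8 had the 5 SMC markers at 9573, beside 6236 to 9312 in vascular SMC, together with 5 fibroblast markers at 2577 against 147.8 to 833 there. Its marker *Rgs10* was at 470.4 and was also at 251.5 to 354.4 in cluster 2, and its cells were the shallowest, with a median of 118252 counts.

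Hedgehog proteins are secreted signals that, in the intestine, are made by the epithelium and received by the mesenchyme beneath it. Without ligand, the receptor Patched 1 (*Ptch1*) holds the membrane protein Smoothened (*Smo*) inactive; ligand binding, helped by the co-receptors GAS1, BOC and CDON, releases Smoothened, and the GLI transcription factors then turn on their targets. *Gli1*, *Ptch1* and *Hhip* are themselves targets of the pathway in many tissues: GLI1 is an activator, Patched 1 restrains the signal, and HHIP (Hedgehog-interacting protein) binds and sequesters the ligand.

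The promoter-side sequences of *Hhip* and *Ptch1* are shown because these 2 targets ran in opposite directions between the lower crypt and the apex fibroblasts. Each is the window of 250 bases upstream of the RefSeq transcription start on GRCm38.p6, on the minus strand, 5′ to 3′, from chr8:80058009-80058258 for *Hhip* and chr13:63565736-63565985 for *Ptch1*; the latter start lies within the longer *Ptch1* gene of the GENCODE annotation, which ends at 63573598.
Hhip: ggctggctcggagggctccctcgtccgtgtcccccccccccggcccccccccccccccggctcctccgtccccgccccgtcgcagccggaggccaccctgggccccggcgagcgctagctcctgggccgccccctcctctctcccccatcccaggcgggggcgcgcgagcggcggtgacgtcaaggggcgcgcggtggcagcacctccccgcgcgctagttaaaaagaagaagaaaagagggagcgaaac
Ptch1: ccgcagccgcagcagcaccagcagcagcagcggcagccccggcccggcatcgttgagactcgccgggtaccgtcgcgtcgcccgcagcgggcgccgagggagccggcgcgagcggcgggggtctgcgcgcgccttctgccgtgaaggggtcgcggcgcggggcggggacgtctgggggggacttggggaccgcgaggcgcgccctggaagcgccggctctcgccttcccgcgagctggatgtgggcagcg
The 9 letters of the GLI consensus, GACCACCCA, were searched for on both strands in these windows and in those of the 5 other members the RefSeq table held (*Gli2*, *Gli3*, *Smo*, *Cdon* and *Gas1*). No window of the 7 held it, with or without 1 mismatch. Among all 32851 windows of this length, 0.225% held the letters exactly and 5.79% within 1 mismatch. The search says only that these letters do not occur in these 250 bases.

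A level is the mean over the cells of a cluster, within a line, of the counts scaled to 500000 per cell; lines with at least 10 cells of a cluster were used, which gave 21 cluster-by-line means. A cell had between 47598 and 1494292 counts on genes, and the cluster-by-line sums held from 2202988 to 85478239. The ligands were close to absent from the sorted cells. *Shh* had 4 counts in 4 of the 1646 cells. *Ihh* had counts in 39 cells, and a single cell of cluster 4 held 78.2% of them. *Dhh* had 93 counts in 10 cells, 77 of them in a single cell of cluster 1. Epithelial cells were not part of the sorted set, and the 4 epithelial markers summed to at most 34.5 in any cluster and line.

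*Ptch1*, the receptor and pathway target, was, among fibroblasts, lowest at the crypt base and highest toward the apex. In cluster 7 its level was 49.1 in the Acta2GFP line, 36.2 in PdgfraGFP and 30.9 in PdgfrbGFP. In cluster 5 it was 97.6 in Acta2GFP, 41.4 in Cspg4dsRED, 66.4 in PdgfraGFP and 50.99 in PdgfrbGFP. In cluster 1 it was 196.02 in Acta2GFP, 140.2 in PdgfraGFP and 108.6 in PdgfrbGFP. All 3 lines of cluster 1 were thus above every line of clusters 7 and 5, while clusters 7 and 5 overlapped. In cluster 6 it was 263.4 in Acta2GFP and 234.4 in PdgfraGFP, and in cluster 2 it was 287.8, 188.9 and 186.9 in Acta2GFP, PdgfraGFP and PdgfrbGFP. The lines of clusters 6 and 2 overlapped, as did those of clusters 2 and 1, while both lines of cluster 6 were above cluster 1. Among mural cells *Ptch1* was 48.8 in the Cspg4dsRED and 18.9 in the PdgfrbGFP pericytes and 26.1, 20.2 and 10.4 in the vascular SMC of Acta2GFP, Cspg4dsRED and PdgfrbGFP. The interstitial SMC, which only the Acta2GFP line gave in number, had a level of 309.8, above every other cluster and line. A *Ptch1* count was found in 79.4% of cluster 7 cells, 87.8% of cluster 1 cells, 92.4% of cluster 2 cells and 38.3% of vascular SMC. With each cell thinned to 50000 counts, which left out 11 cells, these shares became 51.4% (95% Clopper-Pearson interval 44.6 to 58.1%), 76.5% (72.5 to 80.2%), 81.7% (73.98 to 87.9%) and 22.1% (15.6 to 29.9%). Cluster 6 went from 91.1% to 71.1% (55.7 to 83.6%), an interval that spans the 76.5% of cluster 1. Pericytes went from 28.9% to 19.3% (13.1 to 26.8%), below vascular SMC though their mean level was higher. These intervals cover counting error only.

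*Hhip* had its highest level in the interstitial SMC, at 1339 in the Acta2GFP line. All 56 cells of that cluster were over 100 counts per 500000, the 52 Acta2GFP cells between 151.7 and 3311 with a median of 1318, and the 4 PdgfrbGFP cells between 423.4 and 2332 with a median of 1287. Among fibroblasts, cluster 5 had 111.6 in Acta2GFP, 29.5 in Cspg4dsRED, 60.3 in PdgfraGFP and 61.8 in PdgfrbGFP. Clusters 7 (17.2, 13.2 and 29.8 in Acta2GFP, PdgfraGFP and PdgfrbGFP) and 1 (31.1, 21.3 and 21.9) were lower, and both overlapped with each other and at their upper end with the lowest line of cluster 5. Toward the apex *Hhip* was 4.81 and 0.654 in cluster 6 (Acta2GFP and PdgfraGFP) and 6.62, 1.29 and 2.28 in cluster 2, all below every line of clusters 7, 5 and 1. The PdgfraGFP mean of cluster 7 rested on a single cell of its 15, at 194.9. Without it the mean was 0.194, below all lines of clusters 6 and 2. Other means also leaned on their highest cell. Without it the PdgfraGFP means of clusters 2 and 6 were 0.199 and 0.342, and the Cspg4dsRED mean of cluster 5 was 17.1. Pericytes had 0.703 and 4.28 (Cspg4dsRED and PdgfrbGFP), or 0 and 2.76 without the highest cell of each. Vascular SMC had 2.35, 0 and 0.418 (Acta2GFP, Cspg4dsRED and PdgfrbGFP).

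**Figure D1:**
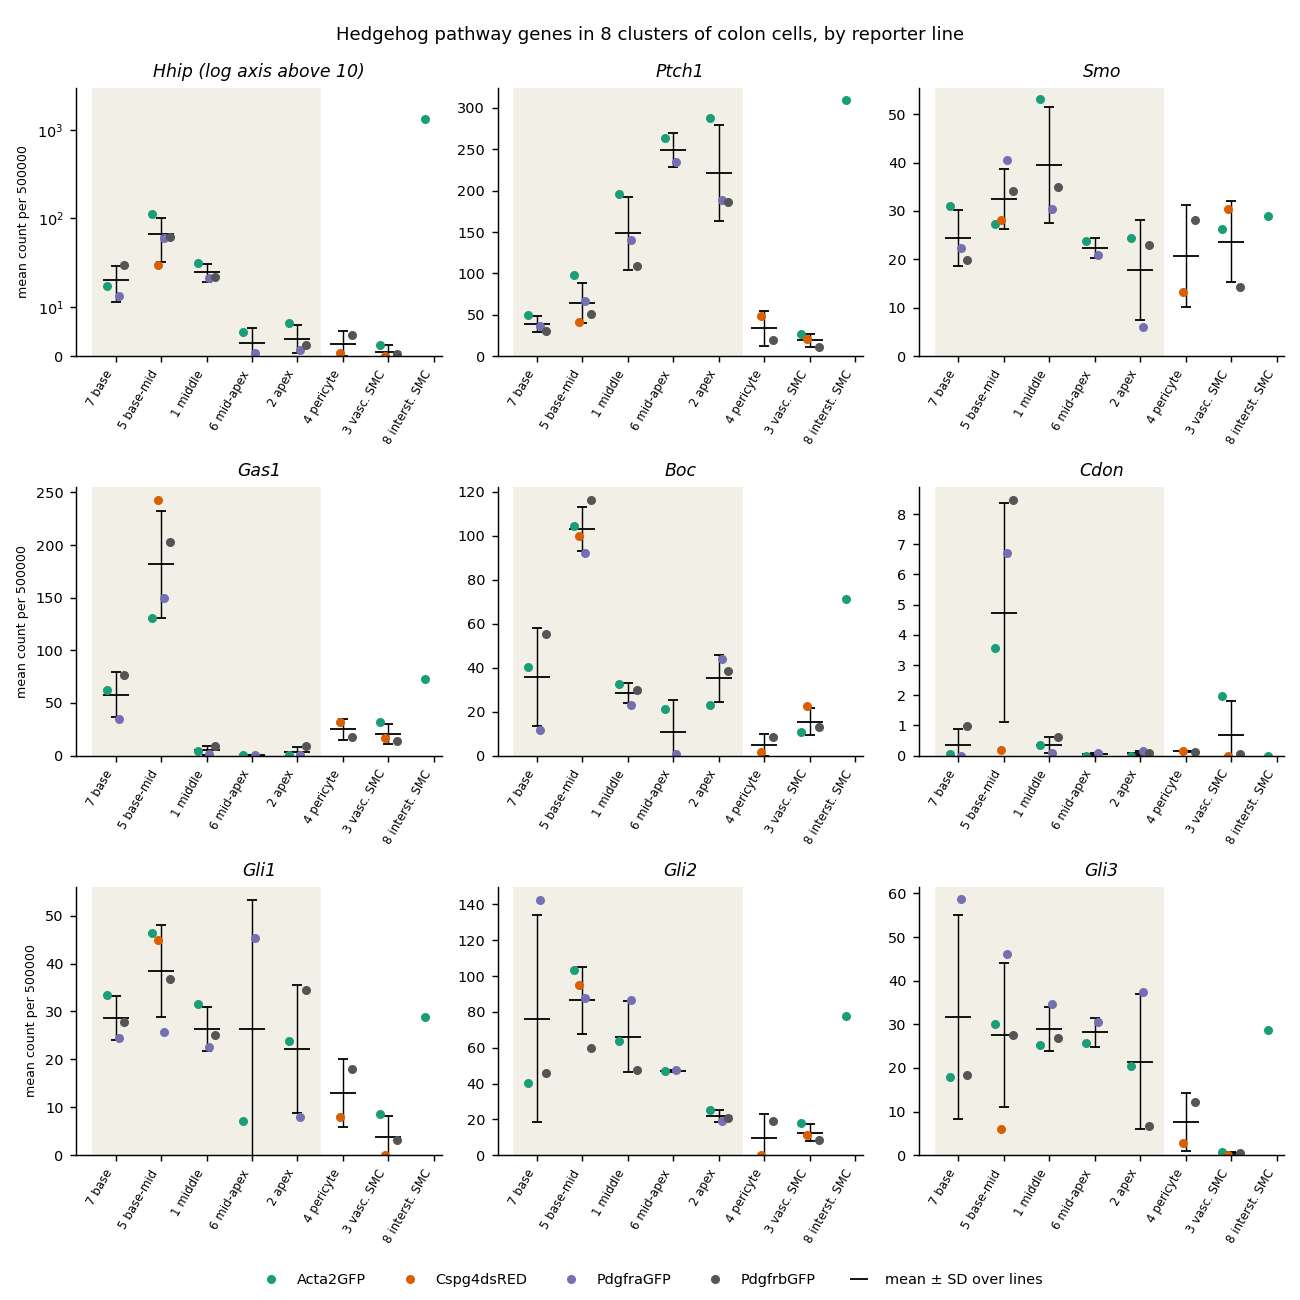
Mean count per 500000 (vertical axis, linear except for *Hhip*, which is on a log scale above 10) of each gene in the 8 clusters (horizontal axis, fibroblasts from base to apex on shading, then mural cells). Points are reporter lines with at least 10 cells, bars the mean ± SD over lines; *Ptch1* is at 38.7 in cluster 7, 248.9 in cluster 6 and 221.2 in cluster 2, *Gas1*, *Boc* and *Cdon* peak in cluster 5, and *Hhip* stands at 1339 in cluster 8.

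The mean level of *Hhip* in the fibroblasts came from a minority of cells. In cluster 5, 82 cells (19.3%) were over 100 counts per 500000, while the median cell had 2.54 and the upper quartile was 24.5. This share was 32.03% in Acta2GFP, 15.4% in Cspg4dsRED, 14.1% in PdgfraGFP and 13.6% in PdgfrbGFP. In cluster 7, 15 cells (6.73%) were over 100, and in cluster 1, 40 (8.28%), while clusters 2 and 3 had no such cell and clusters 6 and 4 had 1 each. The low counts need a limit beside them. On the 2 Acta2GFP plates, which held 40 interstitial SMC (median *Hhip* count 283.5) and 12, 58.9% of the 56 and 62.96% of the 27 cells of clusters 2, 3 and 6 had an *Hhip* count, at a median of 1 and 2 counts. Across these cells the count was correlated with the summed *Hhip* counts of the other wells in the same row or column (Spearman rho 0.43 and 0.63, given as a description). In clusters 1, 5 and 7 on these plates rho was 0.26 and 0.28, and 49.7% and 77.2% of the cells had a count. The part of counts that follow other wells in the low *Hhip* levels was not tested.

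**Figure D2:**
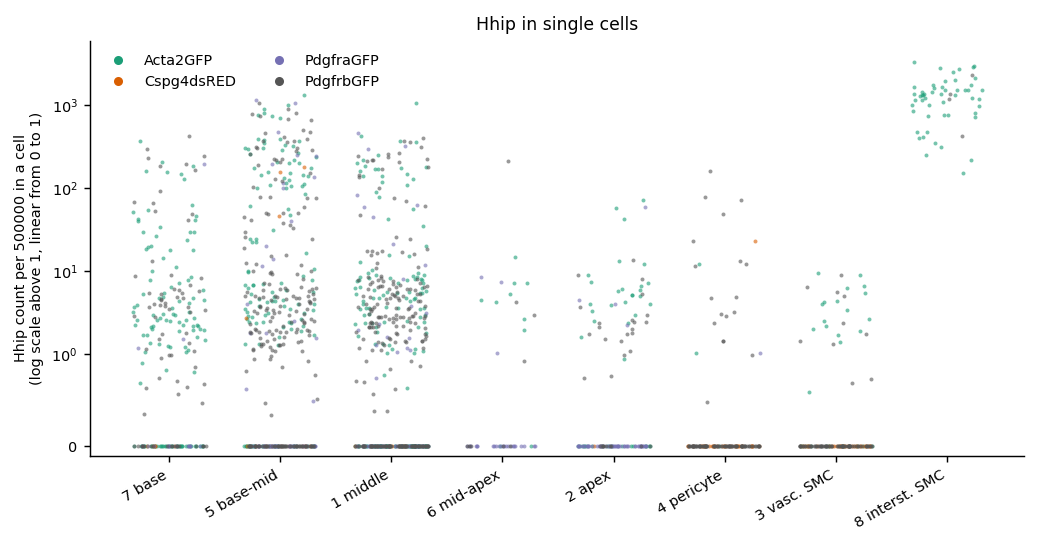
*Hhip* count per 500000 in every cell (vertical axis, log scale above 1) by cluster (horizontal axis), coloured by reporter line; a point is a cell and horizontal spread within a cluster is random. All 56 cells of cluster 8 lie over 100, against 82 (19.3%) in cluster 5 and none in cluster 2.

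The co-receptor *Gas1*, an anchored surface protein, was abundant in the fibroblasts of clusters 7 and 5 and low in the other fibroblasts. Its level in cluster 5 was 130.8 in Acta2GFP, 242.8 in Cspg4dsRED, 149.97 in PdgfraGFP and 202.7 in PdgfrbGFP, above every line of every other cluster. In cluster 7 it was 62.3, 34.8 and 76.9 in Acta2GFP, PdgfraGFP and PdgfrbGFP, and in cluster 1 it was 4.69, 1.11 and 8.76. It was 0.320 and 0.372 in cluster 6 (Acta2GFP and PdgfraGFP) and 0.627, 0.198 and 8.66 in cluster 2. Pericytes, at 17.9 and 32.2, and vascular SMC, at 14.1 to 31.6, were above clusters 1, 6 and 2 and below cluster 7, and the 72.4 of the interstitial SMC lay within the range of cluster 7. *Boc*, a co-receptor of the immunoglobulin superfamily, was also highest in cluster 5, at 103.2 ± 10.02 (SD, n = 4 lines), with no overlap with the 71.2 of the interstitial SMC or with any other cluster. Cluster 7 had a mean of 35.7 ± 22.3, cluster 1 of 28.4 ± 4.71 and cluster 2 of 35.2 ± 10.7 (n = 3 each). The lines of cluster 6 were far apart, at 21.1 in Acta2GFP and 0.796 in PdgfraGFP. *Cdon*, its relative, was scarce throughout, with 2583 counts in all 1646 cells. Its level reached 3.58, 6.72 and 8.45 in the Acta2GFP, PdgfraGFP and PdgfrbGFP cells of cluster 5 and 0.200 in the Cspg4dsRED cells, and was at most 1.97 in every other cluster and line. None of the 56 interstitial SMC had a *Cdon* count, which, by a floor of 3 counts, allows a share of cells with a count of up to 5.36% (upper bound of the 95% Clopper-Pearson interval 6.38%); this covers counting error only, in the shallowest cluster.

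The cluster means of the transducer *Smo* lay between 17.8 ± 10.3 (n = 3) in cluster 2 and 39.5 ± 12.02 (n = 3) in cluster 1, the single mean of the interstitial SMC was 29.01, and each cluster overlapped in its lines with the next in order.

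The 3 GLI genes, which encode the transcription factors of the pathway, were expressed in all fibroblast clusters. *Gli1*, a target often read as a sign of pathway activity, was highest in cluster 5 with 46.4 in Acta2GFP, 45.03 in Cspg4dsRED, 25.6 in PdgfraGFP and 36.7 in PdgfrbGFP. Cluster 7 had 28.6 ± 4.57, cluster 1 had 26.4 ± 4.57 and cluster 2 had 22.2 ± 13.4 (n = 3 each), while the lines of cluster 6 were far apart at 7.08 (Acta2GFP) and 45.4 (PdgfraGFP). The lines of all fibroblast clusters overlapped. *Gli1* was 8.00 and 17.9 in pericytes, 8.52, 0 and 3.16 in vascular SMC and 28.7 in interstitial SMC. *Gli2*, an activator of targets, had a level of 86.5 ± 18.8 at the base to middle (cluster 5), of 76.3 ± 57.6 at the base (cluster 7) and of 66.2 ± 19.7 in the middle (cluster 1), then 47.04 for cluster 6 and 21.8 ± 3.22 for cluster 2. The lines of clusters 1, 6 and 2 did not overlap, but cluster 1 reached down to 47.7 (PdgfrbGFP) and cluster 6 up to 47.3 (PdgfraGFP). By plate these clusters overlapped: cluster 6 had 69.1 and 21.9, cluster 1 went down to 23.5 and cluster 2 up to 41.3. *Gli3*, mainly a repressor, had fibroblast means of 21.4 to 31.6, with the PdgfraGFP line the highest in every fibroblast cluster. Vascular SMC had nearly none, at 0.777, 0 and 0.419, against 2.80 and 12.3 in pericytes and 28.7 in interstitial SMC.

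Between genes, levels were set against each other per kilobase of exon. In cluster 5 the highest were *Gas1* at 61.3, *Boc* at 23.2 and *Gli2* at 12.6 counts per 500000 and kilobase, and *Ptch1* was at 4.52. In cluster 2 the order was led by *Ptch1* at 15.6, followed by *Boc* at 7.91 and *Gli1* at 4.44, with *Gas1* at 1.07 and *Hhip* at 0.374. In cluster 8 *Hhip* was at 147.5, *Gas1* at 24.4, *Ptch1* at 21.8 and *Gli2* at 11.3, with *Boc* between the last 2. In the vascular SMC of cluster 3 *Gas1* (7.05) and *Smo* (4.21) led, and *Hhip* and *Gli3* were at 0.102 and 0.0416. These values are means over lines.

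**Figure D3:**
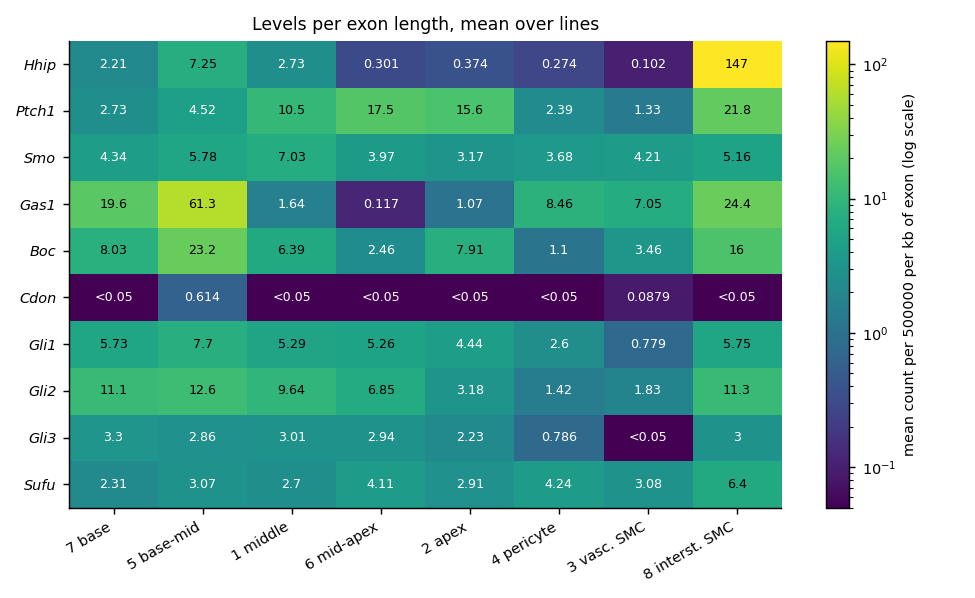
Mean count per 500000 and kilobase of exon (colour on a log scale, value in each cell) of the 9 genes and of *Sufu* (rows) in the 8 clusters (columns), averaged over lines. *Hhip* at 147.5 in cluster 8 and *Gas1* at 61.3 in cluster 5 are the brightest cells, and *Cdon* is below 1 in every cluster.

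The first comparison asked whether the genes differ between the fibroblasts of clusters 1, 2, 5, 6 and 7 (4 lines) and the mural cells of clusters 3, 4 and 8 (3 lines). *Gli1* was 34.8, 46.2, 22.7 and 30.1 in the fibroblasts of Acta2GFP, Cspg4dsRED, PdgfraGFP and PdgfrbGFP and 20.9, 4.19 and 11.7 in the mural cells of Acta2GFP, Cspg4dsRED and PdgfrbGFP, with no overlap, and its log2 fold change was 1.94 ± 0.61 (SE; adjusted p = 0.0968; every adjusted p here is from the quasi-likelihood test of edgeR, corrected over all genes by the Benjamini-Hochberg method). *Boc* was 52.5, 70.1, 44.5 and 66.5 against 47.8, 11.4 and 11.4, overlapping through the Acta2GFP line, with a log2 fold change of 1.29 ± 0.45 (adjusted p = 0.130). None of the 9 members was called in edgeR, 2 had an unadjusted p under 0.05 (*Gli1* and *Boc*), and DESeq2 called 1 (*Gli1*). Over all genes 6.57% were called. With the line as a block, 0 of the 9 members were called, beside 3.08% of all genes. The median log2 fold change was 1.27 over the members and -0.03 over all genes. *Hhip* was 46.01, 13.7, 24.6 and 37.3 in fibroblasts and 830 in the mural cells of Acta2GFP, which comprised 52 interstitial SMC, 29 vascular SMC and 3 pericytes, against 0.368 in those of Cspg4dsRED and 30.6 in those of PdgfrbGFP. The last mean rested on 4 interstitial SMC, without which the other mural cells of that line had 2.58. Its log2 fold change of -2.92 ± 1.497 (adjusted p = 0.325) became 0.93 (adjusted p = 0.865) without the Acta2GFP line, where these 4 cells stayed in, and 0.52 (adjusted p = 0.943) with the line as a block, and the block took the number of genes called from 1259 to 590.

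Along the crypt, 3 of the 9 members were called between the apex fibroblasts (cluster 2) and the mean of clusters 1, 5 and 7, beside 6.28% of all genes. *Ptch1* was higher in the apex cells in 3 of 3 lines, by 2.33 to 2.94 times, with a log2 fold change of 1.98 ± 0.43 (adjusted p = 0.00667). *Hhip* was lower in 3 of 3 lines, with a log2 fold change of -3.36 ± 0.89 (adjusted p = 0.0263), and so was *Gas1*, at -3.35 ± 0.94 (adjusted p = 0.0371). *Gas1* was also low in cluster 1 (4.69, 1.11 and 8.76 in Acta2GFP, PdgfraGFP and PdgfrbGFP), which overlapped with cluster 2 (0.627, 0.198 and 8.66). Its difference lay mainly against clusters 7 and 5. All 3 directions were seen in each of the 4 plates, from 3 lines, that held the clusters in number. The other 6 members were not called. Without the Acta2GFP line none of the 3 was called (adjusted p = 0.0785 for *Ptch1*, 0.102 for *Hhip* and 0.365 for *Gas1*), *Hhip* was also not called without PdgfraGFP (adjusted p = 0.108) or PdgfrbGFP (0.187), and *Gas1* not without Cspg4dsRED (0.0585), all with their directions kept. With at least 3 cells per sum only *Ptch1* was called (0.160 for *Hhip* and 0.218 for *Gas1*). Of the 2 markers of interstitial cells of Cajal, *Ano1* was 98.1 to 219.6 in cluster 2 and at most 43.1 in clusters 7, 5 and 1, and *Kit* was at most 1.497 in these 4 clusters. The 4 endothelial markers summed to 97.7 to 227.5 in clusters 7 and 5, 8.98 to 25.3 in cluster 1, 12.7 to 32.1 in cluster 6 and 5.07 to 21.1 in cluster 2, nearly all of the difference being *Tek*. The 5 fibroblast markers were at 5183 to 7130 in cluster 2 against 7813 to 10178 in clusters 7, 5 and 1. The part of these marker differences in the values was not tested. The median over the members was -0.62, against -0.02 over all genes with those lacking a count on one side set at the bound that a floor of 3 counts per group gives.

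The middle to apex fibroblasts (cluster 6) gave the same 3 calls against clusters 1, 5 and 7, where 4.49% of all genes were called. *Ptch1* was higher by 1.85 ± 0.49 on the log2 scale (adjusted p = 0.0340), and *Hhip* and *Gas1* were lower, at -4.32 ± 1.19 (adjusted p = 0.0419) and -6.81 ± 1.497 (adjusted p = 0.0119), each in 2 of 2 lines and in the 1 plate that could be compared. Both comparisons share the sums of clusters 1, 5 and 7. Cluster 6 had only 10 Acta2GFP and 26 PdgfraGFP cells in its sums. Without Acta2GFP no member was called (adjusted p = 0.524 for *Ptch1*, 0.0919 for *Hhip* and 0.200 for *Gas1*, and the log2 fold change of *Hhip* was -7.74). Without PdgfraGFP (0.0826 for *Ptch1*, 0.278 for *Hhip*) or PdgfrbGFP (0.0810 and 0.104) only *Gas1* was. With at least 3 cells per sum *Hhip* (0.254) and *Gas1* (0.0724) were not called, and with plates in place of lines *Ptch1* was not (log2 fold change 1.41, adjusted p = 0.341). *Boc* was lower by an uncalled -2.70 ± 1.07 (adjusted p = 0.178). The raised SMC marker level of cluster 6, given above, moved with these values. So did the 4 pericyte markers, at 203.9 and 211.5 in cluster 6 against 1.38 to 125.7 in clusters 7, 5 and 1, and the 5 fibroblast markers, at 4890 and 5273 against 7813 to 10178. The part of these markers was not tested. The median over the members was -1.15, and -0.03 over all genes, with the same bound. Between clusters 2 and 6 none of the 9 members was called in edgeR (1 at an unadjusted p under 0.05, none called by DESeq2) beside 0.957% of all genes. The largest of these differences was that of *Gas1*, at 3.46 ± 1.39 (adjusted p = 0.247), and *Hhip* differed by 0.96 ± 1.12 (adjusted p = 0.798; -0.73 with at least 3 cells per sum).

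Within the lower crypt the steps were smaller or less certain. Between cluster 1 and cluster 7 no member was called in edgeR (2 at an unadjusted p under 0.05; DESeq2 called these 2), beside 0.488% of all genes. *Ptch1* was 3.51 to 3.99 times higher in cluster 1 within each of 3 lines, with a log2 fold change of 2.14 ± 0.61 (adjusted p = 0.172), *Gas1* was lower in 3 of 3 lines at -3.42 ± 1.02 (adjusted p = 0.203), and *Hhip* differed by -0.42 ± 0.87 (adjusted p = 1; 0.052 with plates in place of lines), although its mean level was higher in cluster 1 in 2 of 3 lines. The steps on either side of cluster 5 were compared after the levels had been seen. Between clusters 5 and 7 none of the members was called (1 at an unadjusted p under 0.05, *Cdon*, which DESeq2 called), beside 0.0138% of all genes; *Cdon* differed by 5.58 ± 1.98 (adjusted p = 0.783) and *Hhip* by 1.08 ± 0.84 (adjusted p = 0.960), higher in cluster 5 in 3 of 3 lines. Between clusters 1 and 5 none was called either, beside 0.184% of all genes, with 4 members at an unadjusted p under 0.05 and 1, *Gas1*, called by DESeq2. These 4 were *Gas1* at -4.93 ± 1.07 (adjusted p = 0.0701), *Cdon* at -4.29 ± 1.84 (0.600), *Boc* at -1.96 ± 0.90 (0.627) and *Ptch1* at 1.34 ± 0.54 (0.560), the last with cluster 1 at 2.01 to 2.13 times cluster 5 in 3 of 3 lines and above it in 6 of 7 plates. The exception was a PdgfrbGFP plate, with *Ptch1* at 15.5 in cluster 1 and 16.8 in cluster 5; on another plate of that line it was 14.2 and 0, while the remaining 2 had 104.6 and 138.2 in cluster 1. *Hhip* differed by -1.497 ± 0.85 (adjusted p = 0.786). *Gas1* was called between these clusters with no filter on low counts (-4.89, adjusted p = 0.0228), without 1 of the PdgfrbGFP plates (adjusted p = 0.0114) and with plates in place of lines (adjusted p = 1.1e-04), which also called it between clusters 1 and 7 (adjusted p = 0.00237). With the line as a block *Gas1* was called between clusters 1 and 5 too, and 1 member was called between clusters 1 and 7.

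**Figure D4:**
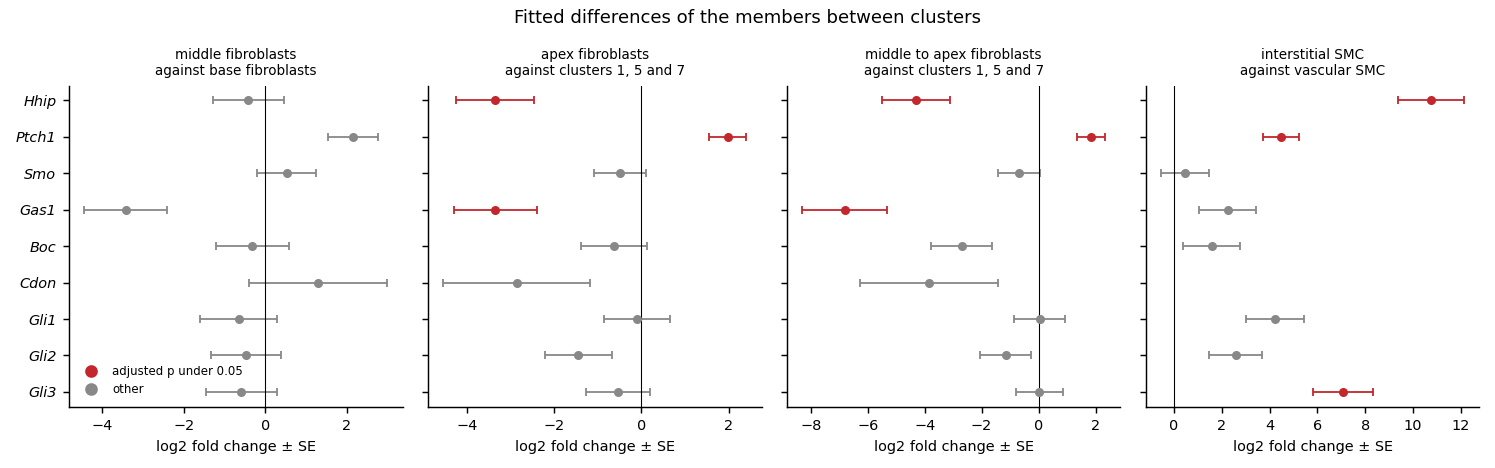
Log2 fold change ± SE (horizontal axis) of each gene (vertical axis) in 4 comparisons between clusters; red points have an adjusted p under 0.05. *Ptch1* lies right of 0 in all 4 panels and *Gas1* left of it in the first 3, and *Cdon* is left out of the last panel because it had no count in cluster 8.

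Among mural cells, no member was called between pericytes and vascular SMC in edgeR (2 at an unadjusted p under 0.05, and DESeq2 called *Gli3*), beside 0.819% of all genes. With no filter, with the line as a block and with plates in place of lines, 1 member was called in each. The log2 fold change of pericytes over vascular SMC was 4.52 ± 1.08 for *Gli3* (adjusted p = 0.0554; without Cspg4dsRED, 4.79 and 0.0357), 2.51 ± 1.06 for *Gli1* (adjusted p = 0.331) and 0.52 ± 1.05 for *Hhip* (adjusted p = 0.957). The 5 fibroblast markers moved with these values, at 1656 and 2786 in pericytes against 147.8 to 833 in vascular SMC, and their part was not tested. The value of *Hhip* turned to -1.77 without PdgfrbGFP (adjusted p = 0.830) and was 2.67 without Acta2GFP (0.512). Interstitial SMC differed from vascular SMC in 3 of 9 members, all higher, beside 1.01% of all genes. *Hhip* was 571 times as high within the Acta2GFP line and its log2 fold change was 10.75 ± 1.39 (adjusted p = 2.5e-04). *Ptch1* was 11.9 times as high in that line, at 4.47 ± 0.76 (adjusted p = 0.00325), and *Gli3* was higher at 7.07 ± 1.24 (adjusted p = 0.00415; without PdgfrbGFP 7.11 and 0.0784). *Gli1* (4.21 ± 1.22, adjusted p = 0.121) and *Gli2* (2.58 ± 1.11, adjusted p = 0.425) were not called, and DESeq2 called *Gli1* too. The interstitial SMC entered as a single sum, assumed to vary like the others, and this sum came from the line for which elastase was added, whose part in the values was not tested. Nor was that of the fibroblast markers, which were higher in the interstitial than in the vascular SMC as given above, or of the 4 pericyte markers, at 232.3 against 1019 to 1462. The authors reported *Hhip* as specific to the interstitial SMC and placed them by HHIP staining. Its difference here is therefore not independent of the cluster's name. On the 2 Acta2GFP plates *Hhip* was 1430 and 1035.5 in interstitial against 2.43 and 2.29 in vascular SMC. The 571-fold ratio rests on a vascular SMC level of 2.35. Such low levels came with counts that tracked other wells, as given above, and their part was not tested. With at least 3 cells per sum, which added the 4 PdgfrbGFP cells as a second sum, *Hhip*, *Ptch1* and *Gli3* were still called, and so was *Gli1*. The median over the members was 2.58 and over all genes, with the bound, 0.

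The rest of the pathway was taken from a list of 49 genes of ligand release, reception, transduction, the cilium and mesenchymal targets. Between cluster 2 and clusters 1, 5 and 7, 8 of 47 tested were higher, 4 lower and 35 not called, with a median of -0.05, beside the 6.28% of all genes called. The 5 with the greatest change were *Foxl1*, a forkhead factor of the gut mesenchyme (log2 fold change 6.79 ± 0.67, adjusted p = 1.6e-06), *Scube3*, of a family that helps release ligand (6.36 ± 1.21, adjusted p = 0.00221), *Gpc3*, a glypican that binds Hedgehog (-5.05 ± 0.76, adjusted p = 2.1e-04), the growth regulator *Mycn* (4.45 ± 0.85, adjusted p = 0.00221) and the T-box factor *Tbx2* (4.44 ± 0.53, adjusted p = 1.7e-05). *Foxl1* was 169.97, 111.7 and 155.6 in the Acta2GFP, PdgfraGFP and PdgfrbGFP cells of cluster 2 and at most 22.02 in every other fibroblast cluster and line. Between cluster 6 and clusters 1, 5 and 7, 4 of 47 were higher and 2 lower (4.49% of all genes called) with a median of 0.21, led by *Osr1* (-6.89), *Gpc3* (-5.12), *Mycn* (4.16), *Tbx2* (4.01) and *Foxl1* (2.87). Between clusters 2 and 6 none of the 47 was called in edgeR (0.957% of all genes), with 9 at an unadjusted p under 0.05 and 6 called by DESeq2. Cluster 1 exceeded cluster 7 in 3 of 47, *Tbx2* (5.37), *Foxl1* (4.45) and *Scube1* (4.00), beside 0.488% of all genes, and cluster 5 in 1, *Tbx2* (5.38), beside 0.184%. None was called between clusters 5 and 7 in edgeR (0.0138% of all genes), where 0 of the list had an unadjusted p under 0.05 and DESeq2 called 0.

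*Sufu*, the inhibitor that binds GLI proteins, was called in no comparison, and its cluster means lay between 17.8 and 32.6 outside the interstitial SMC (49.2).

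Between fibroblasts and mural cells 6 of 46 list genes tested were called, all lower in fibroblasts, with a median of -0.08, beside 6.57% of all genes (615 higher and 644 lower). They were led by the muscle co-activator *Myocd* (-5.02), *Tbx2* (-3.56), the cyclin *Ccnd2* (-1.64), the ciliary motor *Kif3a* (-1.57) and the kinase subunit *Prkar1a* (-1.47). With the line as a block, 4 of the 46 were called, all among these 6, beside 3.08% of all genes; *Kif3a* (adjusted p = 0.219) and the kinase subunit *Prkacb* (0.0546) lost their calls. In pericytes against vascular SMC 2 of 47 were called, both higher in pericytes, beside 0.819% of all genes. One of them, *Efcab7*, a ciliary regulator of the pathway, had no count in the vascular SMC of any line and 15.04 and 2.38 in the pericytes of Cspg4dsRED and PdgfrbGFP. Of the 47, 6 were higher and 1 lower in interstitial than in vascular SMC (1.01% of all genes called), with a median of 0 with the bound, among them *Foxl1* (8.70), *Igf1* (8.09) and *Scube1* (7.18), and *Efcab7* at 7.03 against no count. *Igf1* was at 326.5 in the interstitial SMC.

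**Figure D5:**
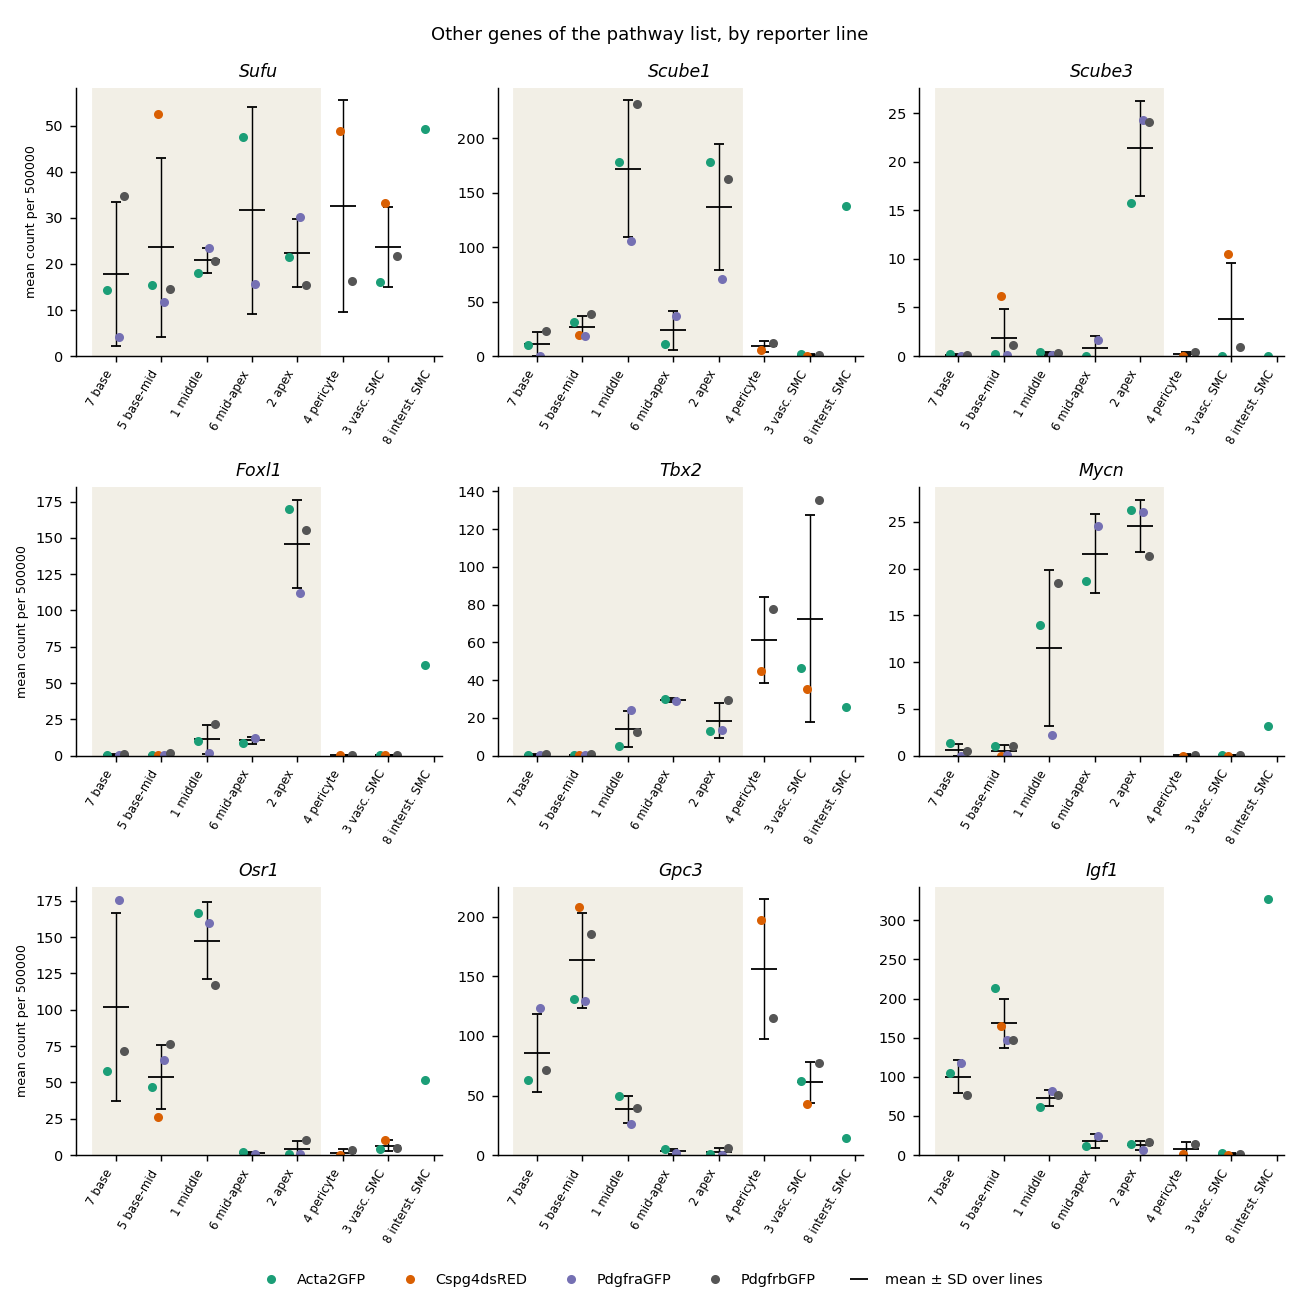
Mean count per 500000 (vertical axis, linear) of 9 other pathway genes in the 8 clusters (horizontal axis, fibroblasts from base to apex on shading), with points for reporter lines and bars for the mean ± SD over lines. *Foxl1* is at 145.8 in cluster 2 and at most 11.3 in the other fibroblast clusters, while *Gpc3* falls from 163.4 in cluster 5 to 2.46 in cluster 2 and *Igf1* is at 326.5 in cluster 8.

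Across the 15 fibroblast means, on the log2 scale with a pseudocount of 1, *Ptch1* and *Gas1* had a Pearson r of -0.86 and *Hhip* and *Gas1* one of 0.77, while *Hhip* and *Ptch1* had -0.60. Over all 21 means, mural cells included, *Hhip* and *Ptch1* had 0.29. The points share libraries and depth, so these are descriptions. Among 21739 genes, those most like *Hhip* over the 21 means were *Tspan18* (r = 0.90), *Igf1* (0.88), *Gm27820* (0.86), *Gstm1* (0.85) and *Gm10115* (0.82). *Gm27820* lies within *Hhip* on the opposite strand, and with no statement that reads were counted by strand, reads of the 2 genes cannot be told apart; it had 2734 counts against the 52412 of *Hhip*. Those most like *Gli1* were *2700081O15Rik* (0.90), *Mab21l2* (0.89), *Mfap2* (0.88), *Bicc1* (0.88) and *Rnase4* (0.87), and those most like *Ptch1* were *Vangl1* (0.90), *Rev3l* (0.89), *Tmem119* (0.89), *Col12a1* (0.89) and *Arhgap28* (0.88). *Gli1* (with *Arhgap9*) and *Gli3* (with *Gm6556*) also overlap genes on the opposite strand, with 1085 and 511 counts against 30779 and 24669 of their own.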

How the data were processed

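SmartSeq2 libraries of single cells, 1 plate per sequencing lane, were read as single 50-base reads. The authors aligned them to GRCm38 with TopHat2 and Bowtie, used featureCounts to assign reads to genes, and the deposited table holds raw counts for every gene and cell, with no molecular identifiers; whether counting used strand is not given in the sources used here. They removed cells with few counts or with few or very many genes, cells with neither *Pdgfra* nor *Pdgfrb*, and contaminating cells, and drew the clusters with pagoda2. The 92 ERCC spike-in rows (1.36% of counts) stayed out of library sizes and tests.

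Counts per cell ranged from 47598 to 1494292 (median 248628). Raw counts were summed per cluster and reporter line where at least 10 cells were present (21 sums) and compared with edgeR 4.0.16 (quasi-likelihood test, TMM normalization, filterByExpr, Benjamini-Hochberg over all genes, called at an adjusted p under 0.05) in R 4.3.3; standard errors were derived from the F statistic. The code was tested on simulated data. Levels were computed with Python 3.11.15 and pandas 2.3.3. The members and gene lists were chosen with earlier results of these data known, and 2 of the 9 comparisons (clusters 5 and 7, clusters 1 and 5) were added after the levels were seen. The text gives the fold change of *Hhip* and of members at an unadjusted p under 0.05, the 5 pathway genes of greatest change among those called, the ligands and *Sufu*; 1 gene of the list is not reported here. Alternatives were DESeq2 1.42.0, no filter, a line block, plates in place of lines, at least 3 cells per sum, leaving out a PdgfrbGFP plate, and leaving out each line. Between fibroblasts and mural cells, sums of the same line deviated together (correlation 0.157 to 0.183 in 3 of 3 pairs), so the line pairs them. Promoter sequences came from RefSeq (GRCm38.p6), which held 7 of the 9 genes, and gene positions and exon lengths from GENCODE. The labels name no mouse.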

Additional observations from a re-analysis of the deposited data

How the results depend on the processing

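Of 87 alternatives to the called member values, 68 kept the call, 19 lost it and 0 changed direction. Members called numbered 1 with DESeq2 and 3 with plates between fibroblasts and mural cells, 1 with at least 3 cells per sum for cluster 2 and again for cluster 6 against clusters 1, 5 and 7, and 1 with plates between clusters 2 and 6. They numbered 1 with the line as a replicate block, 2 with DESeq2 and 1 with plates between clusters 1 and 7, and 1 each with no filter, the block, DESeq2 and plates between pericytes and vascular SMC. Between clusters 1 and 5, *Gas1* was also called with no filter (adjusted p = 0.0228) and with the block (0.0289). Leaving out each line gave 0 to 2 members for cluster 2, 0 to 3 for cluster 6, 0 to 1 for pericytes and 2 to 3 for interstitial SMC, which could not be fitted without Acta2GFP. *Hhip* changed sign between fibroblasts and mural cells with the block (0.52) and between -3.52 and 0.93 on leaving out a line, between clusters 2 and 6 with at least 3 cells (-0.73), between clusters 1 and 7 with plates (0.052), and for pericytes on leaving out a line (-1.77 to 2.67); the cause was not tested. Of all 801 alternative fold changes of the members, 61 changed sign, 0 of them called in either fit. Low counts limit *Cdon* and the low *Hhip* levels. Over all genes, DESeq2 called 2966 between fibroblasts and mural cells (edgeR 1259), 2060 for cluster 2 (edgeR 1365) and 2735 for cluster 6 (edgeR 977). DESeq2 also called 1951 between clusters 2 and 6, 622 between clusters 1 and 7, 1211 for pericytes and 1117 for interstitial SMC. For these last comparisons edgeR had called 0.957%, 0.488%, 0.819% and 1.01% of the genes tested, in that order. Plates gave 2515, 1950, 1353, 620, 491, 507 and 722 genes, in the order of the DESeq2 counts. DESeq2 and plates each also called more genes than edgeR in the 2 added comparisons. Leaving out a line moved the share of all genes called to between 1.81% (without PdgfrbGFP) and 5.81% for fibroblasts and mural cells, with 3.24% without Acta2GFP. Without Acta2GFP, PdgfraGFP and PdgfrbGFP it was 2.00%, 3.44% and 3.94% for cluster 2, 0.605%, 2.12% and 2.28% for cluster 6, 0.0236%, 0.447% and 0.555% between them, 0.0709%, 0.209% and 0.151% between clusters 1 and 7, and 0.0284%, 0.128% and 0.102% between clusters 1 and 5, and without Cspg4dsRED 7.41%, 6.49%, 2.21%, 0.813% and 0.214%. Between clusters 5 and 7 it was 0 without any line. For pericytes it was 0.383% without Acta2GFP, 0.445% without Cspg4dsRED and 0.226% without PdgfrbGFP, and for interstitial SMC 1.64% without PdgfraGFP and 0.485% without PdgfrbGFP. Between clusters, sums of the same line were not treated as paired. The correlation of their deviations had a median of 0.0809 over 43 pairs and was above 0.1 in 20. Pairs of sums from different lines had a median of -0.0307, with 1 above 0.1. Sums of the same line thus deviated together more than sums of different lines, which the cluster fits without the block leave out. The block called 1294 genes for cluster 2 and 679 for cluster 6. Of the alternative levels, 13 moved by more than the SD over lines.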
